A study of Homo sapiens with 6 samples.

Results

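Unedited Panc1 and BxPC3 cells, a pair of human pancreatic ductal adenocarcinoma lines, were compared at baseline on 3 of the 6 expression arrays of the series. The members were chosen by their titles and genotype labels: 1 array of Panc1 control cells and 2 arrays of BxPC3 control cells, which the labels call KDM6A wild-type. The other 3 arrays came from cells of the same lines in which KDM6A, the gene of an H3K27 demethylase, was knocked out with lentiviral CRISPR/Cas9. For those, the protocol describes puromycin selection and clones picked by limiting dilution. Both lines came from the American Type Culture Collection. Panc1 was grown in DMEM and BxPC3 in RPMI 1640, each with fetal bovine serum, so that the medium differed with the line. Nothing in the labels tells if control cells had received a vector, selection or cloning, or if the pair of BxPC3 arrays stands for independent cultures. The p-values given here reflect only how far the arrays lie apart within the pair of BxPC3 control and the pair of BxPC3 knockout arrays, a spread that may be technical.

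Values were log2 summaries of probe sets, the groups of probes that together read 1 transcript. They had been made with RMA, a method that brings the arrays it is given onto a common distribution. Between the 2 BxPC3 control arrays, 846 of 54613 probe sets had exactly the same value, and between the Panc1 control array and each BxPC3 control array there were 0 such probe sets. Cell line and RMA run cannot be told apart in these values. Levels were therefore compared as percentile ranks within an array, among the 41091 probe sets that the platform annotation ties to a single gene symbol. A rank of 100 is the brightest probe set of an array and 50 is the middle one. Ranks are given as that of the Panc1 array against those of the first and second BxPC3 array. A difference is the Panc1 rank minus the mean of the 2 BxPC3 ranks, in percentile points. Of 19775 genes, 12864 lay above rank 50 on at least 1 control array and were tested.

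A gene was called where Panc1 lay at least 25 points above, or at least 25 points below, each of both BxPC3 control arrays and where limma gave a Benjamini-Hochberg adjusted p under 0.05. By this rule 1277 of the 12864 genes, 9.93%, were called. They comprised 574 genes higher in Panc1, 4.46% of those tested, and 703 lower in Panc1, 5.46%. The size criterion decided these calls. The adjusted p alone passed for 8867 genes, 68.9%. The BxPC3 control arrays lay close together, and their ranks differed by 1.39 points (SD over genes), at most by 10.3 points. The adjusted p rests on 2 residual degrees of freedom from the BxPC3 control and knockout pairs, with the single Panc1 array assumed to vary as they do. Ranks are compressed near the top of the scale, so larger differences are also given as folds, read by placing the ranks of the 3 control arrays on their shared mean log2 distribution. Values under rank 50 are dim and have no order that can be relied on, so where a line lay under rank 50 the fold is counted from the shared level at rank 50 and given as "at least". On that scale, with dim values taken as measured, 2209 genes were higher in Panc1 by 2-fold or more and 1744 lower by as much. The split moved with the scale: it was 1658 against 2230 on the log2 values as deposited and 2445 against 1626 after centring each array on its median. Over all genes tested the median difference was 0.926 points, or 0.15 on the shared log2 scale, and changes are to be read against that shift.

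**Figure D1:**
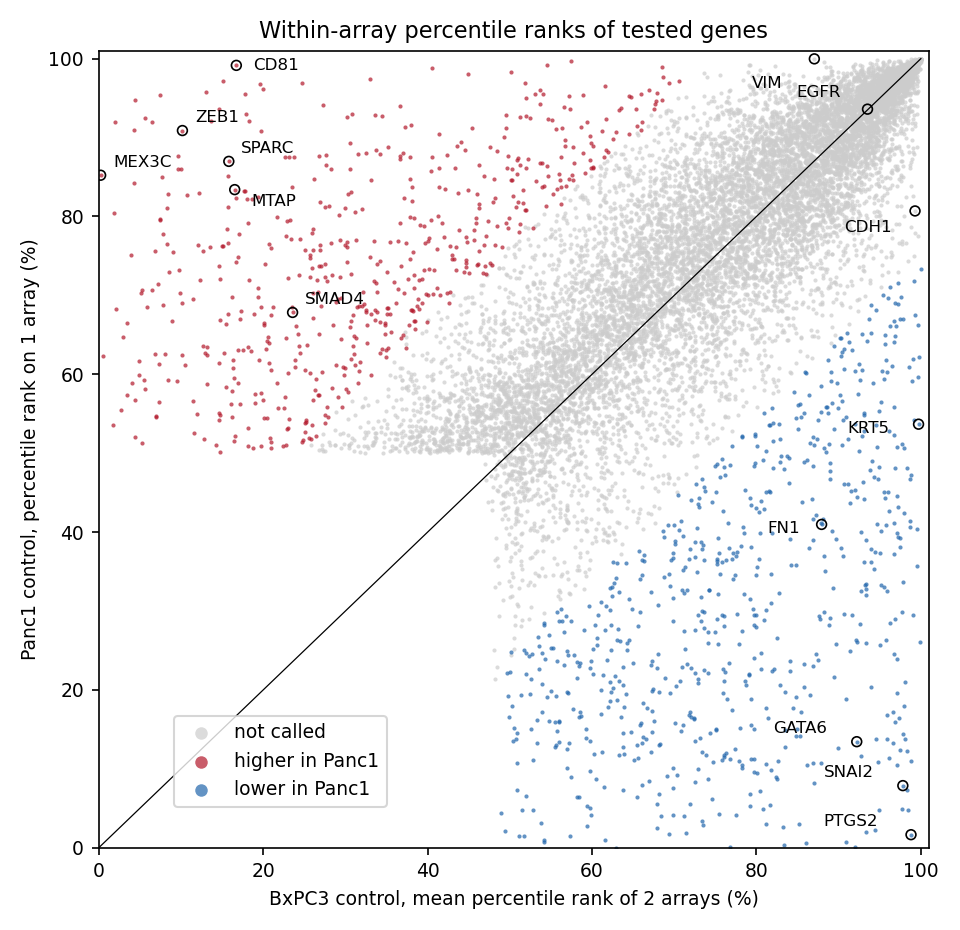
Percentile rank on the Panc1 control array (vertical, percent) against the mean percentile rank on the 2 BxPC3 control arrays (horizontal, percent), with 1 point for each gene tested and circles around named ones. XIST and genes on chromosome Y are not drawn. Red points are genes called higher and blue points genes called lower in Panc1, and the line marks equal ranks.

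The lines were broadly alike in the order of their probe sets. Spearman's rank correlation was taken across the 41091 probe sets with 1 symbol, dim ones and several per gene included. It was 0.861 and 0.860 between the Panc1 array and each BxPC3 array, against 0.997 between the BxPC3 arrays. Probe sets are not independent replicates. Called genes were mostly detected in 1 line and dim in the other. Of the 574 genes higher in Panc1, 463 lay below rank 50 on both BxPC3 arrays, and of the 703 lower genes 582 lay below rank 50 in Panc1.

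Both lines had the keratins of simple ductal epithelium among their brightest transcripts, as the labelled cell type would have. KRT8 and KRT18, which pair in the filaments of simple epithelia, differed by 0.628 and 0.107 points, and the duct keratin KRT19 ranked 99.5 in Panc1 against 99.8 and 99.8 in BxPC3. At the top of the scale these gaps were 1.73-fold and 1.26-fold higher in Panc1 for KRT8 and KRT18 and 1.60-fold lower for KRT19, with a limma adjusted p of 7.18e-04, 0.00954 and 7.39e-04 on the shared log2 scale (0.146, 0.760 and 0.382 on the ranks). Among markers of other cell types, 1 of 4 acinar, 0 of 4 endocrine, 2 of 8 fibroblast and stellate cell, 1 of 5 immune cell, 2 of 5 endothelial and 4 of 5 neural genes measured lay above rank 50 on some control array. The leukocyte gene PTPRC ranked 8.62 against 11.2 and 14.1. The mean rank of the 5 neural genes was 53.4 against 43.2 and 42.6. The acinar genes averaged 18.9 against 34.3 and 33.2, but CPA1, CELA3A and PNLIP were dim in both lines and the gap was that of CEL. Called among these markers were CEL, a digestive lipase of acinar cells, at 13.97 against 73.2 and 73.1, the endothelial cadherin CDH5 at 16.1 against 66.7 and 68.4, and the synaptic vesicle gene SYP at 60.8 against 31.03 and 28.8. The bile-salt lipase and the endothelial cadherin were thus higher in BxPC3, and SYP was higher in Panc1; CDH5 was not called in the knockout arrays. COL1A1, a chain of type I collagen and 1 of the 2 fibroblast markers above rank 50, stood at 83.05 against 67.5 and 67.5. The other, ACTA2, leaned the opposite way at 55.9 against 64.0 and 64.3. The 8 fibroblast and stellate cell genes averaged 42.9 against 43.3 and 42.1. The part of such cells in the results was not tested, and fewer cells of a kind cannot be told apart from less RNA per cell.

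Pancreatic carcinoma lines range from epithelial cells, held together by E-cadherin junctions and grown in tight islands, to mesenchymal cells with vimentin filaments. The transcription factors ZEB1 and SNAI2 can shift cells along this axis by repressing epithelial genes through E-boxes in their promoters, while GRHL2, OVOL2 and the splicing regulator ESRP1 keep the epithelial state. By another scheme, tumours are sorted into a classical subtype with gastrointestinal secretory genes under GATA6 and a basal-like or squamous subtype with keratins and cornified envelope genes of stratified epithelium. BxPC3 is known as an epithelial line without SMAD4, and Panc1 as a more mesenchymal line.

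Most regulators and vesicle proteins of epithelial cells were lower in Panc1. Of 21 epithelial regulators tested, 13 were lower in Panc1 and 0 higher, and their median difference was -38.8 points. The transcription factor EHF, of the epithelial ETS group, ranked 21.01 in Panc1 against 98.1 and 97.96 in BxPC3. GRHL2 ranked 19.3 against 86.1 and 87.03, and ESRP1 29.6 against 91.8 and 91.4. On each, both BxPC3 arrays were high and the Panc1 array was low, a separation that the calling rule itself requires. EHF was at least 55.3-fold lower in Panc1, GRHL2 at least 9.89-fold and ESRP1 at least 16.1-fold, with a limma adjusted p of 5.80e-05, 8.38e-05 and 5.80e-05. MAL2, a protein of apical transport, showed the largest difference of the list at -85.99 ± 0.338 points (SE), ranking 12.3 against 98.3 and 98.3. RAB25, a small GTPase of apical recycling, ranked 26.4 against 92.03 and 92.2, and MYO5B, the motor that carries such vesicles, 20.6 against 83.2 and 82.4. These trafficking genes were thus low in Panc1 together with the regulators. The membrane protease inhibitor SPINT1 ranked 47.9 against 93.7 and 93.9 and KRTCAP3, a keratinocyte-associated protein, 48.9 against 83.4 and 82.4. The Panc1 array was again the low one. In contrast GRHL1 and the protease inhibitor SPINT2 ranked alike in both lines, with differences of -0.449 and -0.282 points.

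Promoters of these genes are shown because the E-box bound by ZEB1 and SNAI2 alike is written in them. The hexamer CAGGTG was searched on both strands, so also as CACCTG, in the 250 bases before each gene start in RefSeq's table for GRCh38.p14. Of the 13 regulators lower in Panc1, 7 had an entry in the table, and 5 of these 7 held the hexamer: RAB25, SPINT1, KRTCAP3, MYO5B and MAPK13. It occurred in 17.5% of all 35116 promoter entries, in 21.1% of tested genes with an entry, in 29.9% of those lower in Panc1 and in 22.9% of those higher. A match is a description of the letters and not a measured site. Below, each promoter is written in the direction of its gene, with the hexamer in capitals: RAB25 at chr1:156060910-156061159 (plus strand), SPINT1 at chr15:40844227-40844476 (plus strand), KRTCAP3 at chr2:27442131-27442380 (plus strand) and MYO5B at chr18:50195148-50195397 (minus strand).
RAB25: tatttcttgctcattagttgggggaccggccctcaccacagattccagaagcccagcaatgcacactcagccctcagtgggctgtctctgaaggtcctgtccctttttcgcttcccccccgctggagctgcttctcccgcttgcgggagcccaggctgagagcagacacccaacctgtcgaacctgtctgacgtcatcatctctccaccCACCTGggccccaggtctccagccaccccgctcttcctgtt
SPINT1: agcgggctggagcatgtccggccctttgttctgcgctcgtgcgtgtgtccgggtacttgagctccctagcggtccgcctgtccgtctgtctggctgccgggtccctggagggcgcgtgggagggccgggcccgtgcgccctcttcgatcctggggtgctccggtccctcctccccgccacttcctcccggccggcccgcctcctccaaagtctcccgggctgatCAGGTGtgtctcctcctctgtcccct
KRTCAP3: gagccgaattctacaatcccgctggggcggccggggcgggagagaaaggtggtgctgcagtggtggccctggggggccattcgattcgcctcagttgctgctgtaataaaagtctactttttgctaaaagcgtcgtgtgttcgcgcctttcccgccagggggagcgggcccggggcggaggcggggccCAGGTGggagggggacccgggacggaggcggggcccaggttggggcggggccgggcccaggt
MYO5B: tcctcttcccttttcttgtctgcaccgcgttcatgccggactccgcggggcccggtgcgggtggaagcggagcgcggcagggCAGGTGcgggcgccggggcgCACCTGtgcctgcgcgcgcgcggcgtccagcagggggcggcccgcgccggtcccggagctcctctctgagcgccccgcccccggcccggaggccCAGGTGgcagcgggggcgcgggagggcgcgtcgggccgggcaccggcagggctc
The hexamer began 41 bases before the start of RAB25, 26 before that of SPINT1, 62 before that of KRTCAP3, and 168, 148 and 54 before that of MYO5B. In MAPK13, whose window is not shown, it began 179, 97 and 81 bases before the start. A further entry of SPINT1 held none, and none was found in the windows of EHF and KLF5.

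Most junction genes lay within 25 points, as most genes tested did. The share called lower in Panc1 was 14.8%, against 5.46% over all genes tested. Of 27 tested, 4 were lower in Panc1 and 0 higher, with a median of -10.4 points, and on the shared log2 scale 15 were lower by 2-fold or more and 2 were higher by as much. CDH1, the gene of E-cadherin, ranked 80.7 in Panc1 against 99.3 and 99.3 in BxPC3. The Panc1 array was below both BxPC3 arrays but within 25 points of them, and the gene was not called. At the top of the scale this difference of -18.6 points was 17.1-fold on the shared log2 scale. A second probe set of CDH1 ranked 21.01 against 82.3 and 81.4, -60.8 points apart. EPCAM, an epithelial adhesion molecule, ranked 86.1 against 98.8 and 98.7. The 4 called genes were the desmosomal cadherins DSC3 (29.4 against 87.9 and 87.4) and DSG3 (31.6 against 79.3 and 79.1), the desmosomal plaque protein PKP1 (48.7 against 80.03 and 79.7) and the tight junction protein MARVELD3 (29.9 against 73.4 and 73.96). DSC3, DSG3 and PKP1 mark the desmosomes of stratified epithelium. Tight junction claudins did not move together: CLDN4 differed by 1.73 points, CLDN7 by -10.99 and CLDN3 by 15.5.

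The regulators of mesenchymal transition split between the lines. Of 10 tested, 4 were higher in Panc1 and 1 was lower. ZEB1 ranked 90.9 in Panc1 against 12.4 and 7.93 in BxPC3. The Panc1 array was high and both BxPC3 arrays were near the bottom, a difference of 80.7 ± 2.54 points (SE) and at least 14.8-fold higher in Panc1 (limma adjusted p = 6.34e-04). SNAI2, the gene of Slug, ranked the other way, 7.88 against 97.8 and 97.8. Its difference was -89.9 ± 0.283 points, at least 50.7-fold lower in Panc1 (limma adjusted p = 5.80e-05), among the 15 largest differences of all genes tested. The forkhead factor FOXF2 ranked 83.3 against 17.9 and 17.6, TWIST2 60.3 against 23.6 and 30.8 and SNAI1 51.97 against 26.02 and 25.1, each higher in Panc1. TWIST2 was not called in the knockout arrays. ZEB2 was dim on all control arrays, at 16.7 against 9.42 and 9.42.

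Vimentin was bright in both lines and lay at the very top of the Panc1 array. VIM ranked 99.97 in Panc1 against 86.6 and 87.5 in BxPC3. The gap of 12.9 points was under the 25 that count, yet it was 30.2-fold higher in Panc1 on the shared log2 scale, and a second probe set ranked 71.6 against 4.01 and 5.43. CDH2, the gene of N-cadherin, ranked 80.7 against 63.3 and 61.2, 3.35-fold higher in Panc1. Over the 26 mesenchymal cytoskeleton and surface genes tested, 0 were called higher and 1 (3.85%) lower, against 4.46% and 5.46% over all genes tested. Their median was 4.01 points, and on the shared log2 scale 11 were higher by 2-fold or more and 3 lower. The gene called lower was CDH11, a cadherin of mesenchymal cells, at 38.02 against 90.4 and 90.3. The BxPC3 arrays were thus the higher ones for CDH11 as they were for SNAI2. Other surface genes of mesenchymal cells lay within 25 points near the top of the scale: AXL differed by 4.09 points, 3.18-fold higher in Panc1, CD44 by 1.32 points, 2.68-fold higher, and NT5E by 0.471 points, 1.13-fold.

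Several keratins of stratified epithelium were higher in BxPC3, whereas KRT8, KRT18 and KRT19 differed by under 1 point and by under 2-fold. Of 13 keratins tested, 6 were lower in Panc1 and 0 higher, with a median of -15.4 points. On the shared log2 scale 7 were lower by 2-fold or more and 2 higher. The 2 were KRT10 (97.2 against 92.4 and 91.8) and KRT80 (71.1 against 56.8 and 58.4), neither of them called. KRT15 and KRT16 were not called either, with differences of 1.60 and -15.4 points, so stratified keratins did not all lean to BxPC3. KRT5, the basal cell keratin, ranked 53.7 in Panc1 against 99.7 and 99.7 in BxPC3, and its partner KRT14 22.6 against 81.5 and 79.7. KRT13 and KRT4, which pair in the suprabasal layers of moist stratified epithelia, ranked 17.2 against 96.6 and 96.5 and 35.4 against 94.4 and 94.1. Both BxPC3 arrays were high for these keratins, and the Panc1 array was low for KRT14, KRT13 and KRT4 and near the middle for KRT5. KRT5 was 153-fold lower in Panc1 on the shared log2 scale and KRT13 at least 36.1-fold lower. KRT7, a keratin of ducts, ranked 66.2 against 99.6 and 99.6, with further probe sets above rank 50 at -22.8 and -36.5 points. KRT23 was lower as well (19.7 against 83.6 and 83.4).

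Genes of the squamous or basal subtype were lower in Panc1 in 17 of 23 tested, with 0 higher and a median difference of -50.4 points. PTGS2, the gene of the inducible cyclooxygenase COX-2, ranked 1.66 in Panc1 against 98.8 and 98.8 in BxPC3. Its deficit of -97.1 ± 0.292 points was the largest in rank points of the genes tested, with XIST and genes on chromosome Y set aside. That place rests on a dim Panc1 rank. Counted from rank 50, PTGS2 was at least 76.0-fold lower in Panc1, against at least 271-fold for IFI27. SCEL, a cornified envelope precursor, ranked 2.24 against 94.4 and 94.5. The cross-linked envelope proteins SPRR1B (16.5 against 97.3 and 97.4) and SPRR3 (26.04 against 92.4 and 92.02) had the same pattern. For both SPRR genes the BxPC3 arrays lay near the top of the scale and the Panc1 array far below. SERPINB5, the gene of maspin, ranked 17.98 against 97.9 and 97.9, and SERPINB3, an inhibitor of cysteine proteases, 20.4 against 94.04 and 93.8. SPRR and SERPINB genes have near-identical paralogs, so that their probe sets may share signal. The smallest differences of the list were those of the cystatin gene CSTB (-0.364 points) and the cadherin gene CELSR2 (-5.69).

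Genes of the classical subtype were also lower in Panc1, in 10 of 18 tested, with 0 higher and a median of -34.9 points. GATA6, the transcription factor that marks this subtype, ranked 13.5 in Panc1 against 92.1 and 92.3 in BxPC3, at least 17.3-fold lower in Panc1. ANXA10, an annexin of gastric-type epithelium, ranked 10.6 against 97.3 and 97.02. CEACAM6, a surface adhesion molecule, ranked 35.8 against 99.5 and 99.5, and CEACAM5, the carcinoembryonic antigen, 29.9 against 97.7 and 97.7. For CEACAM5 a second probe set ranked 61.8 against 60.8 and 58.7 and showed no such gap. The trefoil peptide TFF1 ranked 28.8 against 81.3 and 80.5 and the tetraspanin TSPAN8 9.16 against 68.4 and 69.9. BxPC3 was thus the high line for markers of both subtypes. Members that were not called included FOXA2, at 80.6 against 82.1 and 82.3, and GATA4, at 59.4 against 47.2 and 46.3. The secretory disulfide isomerase AGR2, at 95.7 against 98.7 and 98.8, was not called either but was 2.45-fold lower in Panc1. HNF4A and TP63, which are used to tell the subtypes apart, were not analysed here.

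Of 10 duct and progenitor genes tested, 4 were lower in Panc1 and 0 higher, with a median of -15.7 points. The secreted phosphoprotein SPP1, osteopontin, ranked 16.5 in Panc1 against 71.7 and 73.1 in BxPC3, and BICC1, an RNA-binding protein linked to tubule formation, 5.36 against 59.6 and 59.3. The mucin-like MUC20 ranked 38.8 against 73.3 and 73.1 and the tetraspanin TSPAN1 68.9 against 97.2 and 97.2. SOX9, the duct transcription factor, pointed the other way without being called: it ranked 97.7 against 79.3 and 79.7, 8.64-fold higher in Panc1. The progenitor factor PDX1 was dim on all control arrays (26.9 against 40.2 and 34.6). Among 8 mucins, 2 were lower in Panc1, MUC20 and MUC4. MUC4, a membrane mucin of pancreatic carcinoma, ranked 25.9 against 77.6 and 78.00, and MUC1 79.1 against 90.98 and 90.4.

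Collagen genes went both ways. Of 21 tested, 3 (14.3%) were higher in Panc1 and 5 (23.8%) lower, against 4.46% and 5.46% over all genes tested. Their median of 1.31 points turns negative on the log2 values as deposited, so that the list has no settled direction. The basement membrane chains of type IV collagen themselves divided. COL4A6 ranked 7.30 in Panc1 against 98.3 and 98.3 in BxPC3 and COL4A5, its neighbour on the X chromosome, 52.8 against 96.02 and 96.2, both lower in Panc1, whereas COL4A2 ranked 63.03 against 18.3 and 16.9. In the knockout arrays COL4A2 was at 21.2 against 15.9 and 16.6 and differed by 5.00 points. The fibrillar chain COL11A1 ranked 92.9 against 30.4 and 36.9 and COL18A1, the source of endostatin, 98.1 against 47.04 and 42.7, both higher in Panc1. COL12A1, which decorates fibrils, ranked 32.5 against 96.3 and 95.6, and the short-chain collagen COL8A1 6.16 against 74.1 and 75.1. Here the BxPC3 arrays were the higher ones.

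Laminins and other basement membrane genes divided as well, with 2 of 14 higher and 2 lower in Panc1. Each share was 14.3%, against 4.46% higher and 5.46% lower over all genes tested. LAMB3, a chain of the laminin that anchors hemidesmosomes, ranked 51.8 in Panc1 against 87.4 and 87.4 in BxPC3, and NID2, a linker of laminin and collagen IV, 11.3 against 96.3 and 95.99. In Panc1 the higher genes were LAMB2 (76.9 against 35.8 and 31.1), a laminin chain of mesenchymal and vascular basement membranes, and PXDN (70.8 against 36.1 and 36.7), the peroxidase that cross-links collagen IV.

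Among 32 matrix glycoproteins and proteoglycans, 5 (15.6%) were higher and 6 (18.8%) lower in Panc1, against 4.46% and 5.46% over all genes tested. SPARC, a collagen-binding glycoprotein, ranked 86.98 in Panc1 against 16.4 and 15.3 in BxPC3, at least 10.3-fold higher in Panc1. FN1, the gene of fibronectin, ranked 40.98 against 87.7 and 88.2, at least 11.1-fold lower in Panc1. A further 3 bright probe sets of FN1 differed the same way, by -52.9, -61.6 and -66.98 points. A pair of genes used as mesenchymal markers therefore lay in opposite directions. Thrombospondin 1, THBS1, ranked 43.1 against 97.3 and 97.2, and the fibulin EFEMP1 48.2 against 96.96 and 96.9, both higher in BxPC3. The heparan sulfate proteoglycan GPC6 ranked 77.8 against 16.96 and 17.3, and the elastic fibre proteins EMILIN2 and EFEMP2 74.9 against 35.6 and 30.4 and 73.02 against 33.5 and 36.6. These were higher in Panc1. The large proteoglycan VCAN ranked 17.2 against 55.1 and 52.8 and the microfibril protein MFAP5 27.5 against 77.6 and 78.9, both lower in Panc1.

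Proteases of the matrix leaned towards BxPC3: 11 of 29 proteases and inhibitors were lower in Panc1 and 3 higher, with a median of -14.6 points. MMP1, the interstitial collagenase, ranked 29.5 in Panc1 against 99.04 and 99.1 in BxPC3, at least 88.96-fold lower in Panc1. PLAT, the tissue plasminogen activator, ranked 10.7 against 87.9 and 87.9. The kallikreins KLK10 and KLK11 ranked 28.4 against 96.3 and 96.3 and 35.8 against 84.8 and 84.7, and the membrane serine protease TMPRSS4 37.8 against 93.9 and 93.97. For each of these both BxPC3 arrays lay far above the Panc1 array. MMP2, the gelatinase typical of mesenchymal cells, was the opposite case at 86.1 against 42.1 and 40.8. The urokinase gene PLAU differed by 1.71 points, while its receptor PLAUR was lower in Panc1, at 60.4 against 95.1 and 95.4. Of 16 enzymes of matrix crosslinking, 2 (12.5%) were higher in Panc1 and 1 (6.25%) was lower, against 4.46% and 5.46% over all genes tested. The higher ones were the lysyl oxidase-like genes LOXL1 (74.6 against 41.6 and 34.2) and LOXL2 (88.9 against 59.1 and 61.1). The lower one was the procollagen protease BMP1 (49.1 against 80.7 and 80.9). LOXL1 was not called in the knockout arrays, where it ranked 34.8 against 17.3 and 22.7.

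Most integrins were not called, but 13.3% were called lower in Panc1, against 5.46% over all genes tested. Of 15 tested, 2 were lower in Panc1 and 0 higher, with a median of 0.0499 points that changes sign on the log2 values as deposited. ITGB8, a receptor that activates latent TGF-beta, ranked 59.5 in Panc1 against 95.8 and 95.3 in BxPC3, and the collagen receptor chain ITGA1 28.3 against 59.9 and 60.7. The main fibronectin and collagen receptor chain ITGB1 differed by 0.0499 points and ITGA2 by -0.178. ITGB4, the hemidesmosome integrin, differed by -22.3 points, 4.54-fold lower in Panc1, and was not called.

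Most growth factor receptors were not called, but the called shares were above those of all genes tested. They were 10% higher and 10% lower in Panc1, against 4.46% and 5.46% over all genes tested. Of 30 receptor tyrosine kinases tested, 3 were higher and 3 lower in Panc1. EGFR ranked 93.6 in Panc1 against 93.5 and 93.5 in BxPC3, with a difference of 0.0919 ± 0.306 points (SE; limma adjusted p = 0.810), MET differed by -1.10 points and ERBB2 by 2.40. ERBB3, a partner of ERBB2 with little kinase activity of its own, ranked 32.9 against 88.9 and 89.6. A further bright probe set of ERBB3 differed by -54.2 points, but 2 others, near rank 50, leaned the other way by 14.3 and 10.5 points. EPHA1, an epithelial ephrin receptor, ranked 38.2 against 78.7 and 79.8 and FGFR3 64.5 against 90.3 and 90.1. ROR2, the receptor for WNT5A-type ligands, ranked 62.6 against 6.52 and 7.11, and the ephrin receptors EPHA7 and EPHB1 68.6 against 19.5 and 19.98 and 53.2 against 22.5 and 23.6. Panc1 was the higher line for these 3, by at least 1.92-fold, 2.78-fold and 1.16-fold counted from rank 50.

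Of 26 ligands of such receptors, 2 (7.69%) were higher and 3 (11.5%) lower in Panc1, against 4.46% and 5.46% over all genes tested. Their median of 2.16 points turned negative on the log2 values as deposited. BTC, betacellulin, a ligand of EGFR and ERBB4, ranked 2.86 in Panc1 against 73.1 and 74.01 in BxPC3. KITLG, the ligand of KIT, ranked 59.3 against 92.8 and 92.5 and the ephrin EFNB1 43.2 against 73.6 and 72.6. Higher in Panc1 were FGF2 (72.8 against 32.3 and 29.00), a growth factor of mesenchymal and endothelial cells, and the neuregulin NRG2 (66.01 against 30.5 and 30.5).

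The RAS-ERK cascade and its feedback genes were called at 2 of 27 members. The shares, 3.70% higher and 3.70% lower in Panc1, were under the 4.46% and 5.46% over all genes tested. DUSP4, a nuclear phosphatase induced by ERK, ranked 24.6 in Panc1 against 96.6 and 96.8 in BxPC3, at least 37.5-fold lower in Panc1, and ETV5, an ERK-induced transcription factor, 94.7 against 69.5 and 67.6. DUSP6 and SPRY2, feedback inhibitors of the same cascade, differed by -6.27 and 1.07 points and the AP-1 subunit FOSL1 by 8.64. The list had a median of 1.42 points, close to that of all genes tested.

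Ligands, antagonists and transducers of the TGF-beta and BMP pathway were called at 12 of 43 tested members. In Panc1 5 (11.6%) were higher and 7 (16.3%) lower, against 4.46% and 5.46% over all genes tested. The median of 2.16 points turned negative on the log2 values as deposited. Ligands divided within each branch. Among activins, INHBA ranked 48.4 in Panc1 against 86.7 and 87.1 in BxPC3 and INHBB 83.8 against 39.1 and 37.03, lower and higher in Panc1. Among bone morphogenetic proteins, BMP2 and BMP4 ranked 25.9 against 75.2 and 75.6 and 34.9 against 72.7 and 72.7, whereas BMP6 ranked 91.6 against 39.8 and 36.2. Follistatin, FST, which traps activins, ranked 62.2 against 99.8 and 99.8, 107-fold lower in Panc1, and the follistatin-like FSTL1 42.6 against 96.1 and 96.1. The receptor BMPR1B ranked 11.8 against 74.2 and 73.6, and the pseudoreceptor BAMBI 26.6 against 60.8 and 60.4. Both were lower in Panc1, while TGFBR1 and TGFBR2 differed by 1.80 and -8.86 points.

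Among the transducers, SMAD4, the partner shared by both branches, ranked 67.8 in Panc1 against 24.04 and 23.1 in BxPC3, a difference of 44.3 ± 3.85 points (SE; limma adjusted p = 0.00378). A further probe set that was bright in Panc1 ranked 83.03 against 0.229 and 0.0462, the bottom of both BxPC3 arrays. SMAD9, a transducer of the BMP branch, ranked 77.5 against 24.6 and 20.99. SMAD2 and SMAD3 differed by 2.17 and 7.96 points. ID2, a target of the BMP branch, ranked 50.9 against 22.8 and 22.2, and ID1, another target, differed by -2.02 points.

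Wnt pathway genes were called in 5 of 32, 3 (9.4%) higher and 2 (6.25%) lower in Panc1, against 4.46% and 5.46% over all genes tested. Their median of 2.41 points was slightly negative on the log2 values as deposited. The higher ones were the secreted modulators DKK3 (97.1 in Panc1 against 15.6 and 14.6 in BxPC3) and SFRP1 (92.1 against 18.9 and 17.6) and the ligand WNT5B (82.3 against 16.6 and 16.8). The lower ones were the ligands WNT7A (36.4 against 75.3 and 75.1) and WNT10A (46.1 against 72.6 and 72.7). SFRP1 was at least 17.2-fold higher in Panc1 and WNT5B at least 7.07-fold higher. Of 20 Notch genes, 2 were called, both ligands. With 5% higher and 5% lower, the Notch list was near the shares over all genes tested. DLL1 ranked 12.7 against 89.7 and 90.1 and DLL3, a ligand that does not activate the receptor in neighbouring cells, 95.6 against 17.5 and 18.03. The lines thus differed in opposite directions at these Delta-like ligands, although 3 other probe sets of DLL3 differed by only 12.95 to 20.4 points. Of 9 Hedgehog genes 1 (11.1%) was higher in Panc1, the ligand SHH (80.9 against 53.6 and 50.05). Of 18 YAP-TEAD genes 2 (11.1%) were lower, the cofactor VGLL3 (18.3 against 66.3 and 66.1) and the target ANKRD1 (25.3 against 54.2 and 55.9).

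Inflammatory cytokines and chemokines were lower in Panc1 in 13 of 34 tested and higher in 2, with a median of -14.4 points. IL1A, an alarmin of the interleukin-1 family, ranked 13.8 in Panc1 against 98.02 and 98.1 in BxPC3, and its relative IL1B 44.6 against 97.1 and 97.1. IL33 ranked 3.20 against 54.1 and 53.5 and TSLP 4.13 against 69.98 and 69.7, cytokines released by epithelia. CXCL10, which draws T cells, ranked 41.2 against 96.5 and 97.01. For each of the 5 the BxPC3 arrays were above the Panc1 array, as the calling rule requires. CCL2, which draws monocytes, went the other way, at 96.9 against 26.97 and 22.4, at least 39.5-fold higher in Panc1. CX3CL1, a membrane-tethered chemokine, ranked 78.9 against 46.6 and 50.2. The neutrophil chemokine CXCL8 differed by -13.2 points, 5.79-fold lower in Panc1, and was not called.

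Genes of the interferon response were lower in Panc1 in 17 of 39 tested and higher in 2, and 34 were lower by 2-fold or more on the shared log2 scale; the median was -21.6 points. IFI44L and IFI44 ranked 12.4 in Panc1 against 97.4 and 97.5 in BxPC3 and 14.4 against 97.9 and 97.9. EPSTI1 ranked 13.7 against 95.8 and 95.9, the ubiquitin ligase HERC6 26.3 against 95.8 and 95.8 and IFI27 26.1 against 99.9 and 99.9. IFI27 was at least 271-fold lower in Panc1. The antiviral GTPase MX1 was an exception at 61.5 against 19.1 and 22.4, as was IRF7, the transcription factor that amplifies the response, at 74.3 against 33.4 and 34.98. The genes of the membrane proteins IFITM2 and IFITM3 differed by -0.421 and -0.387 points. Of 20 antigen presentation genes, 3 were lower in Panc1, 15% against 5.46% over all genes tested. They were the NKG2D ligand gene ULBP2 (50.8 against 97.04 and 97.1), the class I transactivator NLRC5 (23.7 against 60.3 and 59.5) and the peptidase ERAP2 (71.01 against 96.3 and 96.2).

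HOX genes, which record position along the body axis, leaned to Panc1. Of 19 tested, 8 were higher and 0 lower, 18 differed above 0, and the median was 23.3 points. HOXB8 ranked 86.1 in Panc1 against 8.60 and 11.3 in BxPC3, HOXC13 88.1 against 36.1 and 37.8 and HOXB2 95.5 against 53.1 and 53.1. HOXC10 and HOXC9 ranked 82.98 against 44.99 and 42.5 and 81.5 against 45.7 and 46.8, and HOXB6 92.4 against 62.98 and 60.4. The called genes lay in the B and C clusters, as did every HOX gene tested except HOXA2 and HOXD9. By the calling rule both BxPC3 arrays lay at least 25 points below the Panc1 array at each called gene.

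Driver and cell cycle genes mostly lay within 25 points, with 4 of 33 higher in Panc1 and 0 lower. That is 12.1% higher, against 4.46% over all genes tested. The 4 were SMAD4, MTAP, MAP2K4 and CDKN1C. MTAP, the gene of a methionine salvage enzyme, ranked 83.4 in Panc1 against 15.9 and 17.2 in BxPC3, and MAP2K4, a kinase of the JNK pathway, 72.9 against 8.65 and 8.49. CDKN1C, which encodes the cell cycle inhibitor p57, ranked 74.7 against 42.5 and 44.03, and in the knockout arrays 44.5 against 37.8 and 34.4, where it was not called. KDM6A itself ranked 69.4 against 80.4 and 78.5, within 25 points, and a second probe set differed by -6.42 points. Another ranked 15.8 against 59.9 and 61.3, -44.8 points apart, so that the probe sets of KDM6A disagreed. The inhibitor CDKN1A ranked 86.2 against 94.3 and 94.4, and CDKN2A, the gene of p16, 48.7 against 50.7 and 52.2.

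Called genes were next placed in chromosome order, a step chosen after the values had been seen. Runs of at least 3 tested neighbours that were all called in the same direction numbered 31, of which 16 were higher and 15 lower in Panc1, with 112 genes in all. The run around SMAD4 on chromosome 18 held ME2, ELAC1, SMAD4 and MEX3C. ME2, a mitochondrial malic enzyme, ranked 91.2 in Panc1 against 51.2 and 47.8 in BxPC3, the tRNA-processing gene ELAC1 56.5 against 7.93 and 6.70 and MEX3C, an RNA-binding ubiquitin ligase, 85.2 against 0.336 and 0.141. BxPC3 was at the floor of the scale for MEX3C, whose 4 other probe sets lay under rank 50 on every control array. The tested genes on either side were not called: SKA1 ranked 72.97 against 68.9 and 69.9 and MBD2 92.99 against 96.2 and 96.2. On chromosome 9, KLHL9, MIR31HG and MTAP formed a run. KLHL9 ranked 81.1 against 9.01 and 7.58 and the miR-31 host transcript MIR31HG 72.3 against 28.8 and 29.98. The next tested gene, CDKN2A, ranked 48.7 against 50.7 and 52.2, at the edge of the dim range. Its other probe sets were dim on every control array, at 6.64 against 4.59 and 5.45 and 20.9 against 24.4 and 26.1. Like ranks this dim cannot show if the stretch low in BxPC3 ends before CDKN2A. FOCAD on the other side ranked 70.4 against 67.4 and 68.9. MAP2K4 on chromosome 17 stood alone, between ZNF18 at 67.5 against 59.4 and 58.1 and ELAC2 at 80.7 against 82.97 and 83.9. DNA copy number was not measured.

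Some other runs were families of paralogs whose probe sets may share signal, while others held genes of different families, such as USP47, DKK3 and MICAL2. On chromosome 18 the 6 serpin genes SERPINB5, SERPINB13, SERPINB4, SERPINB3, SERPINB7 and SERPINB8 were lower in Panc1. So were 6 guanylate-binding protein genes, GBP1 to GBP6, and 5 SPRR genes on chromosome 1, as well as AKR1C1, AKR1C2 and AKR1C3, the aldo-keto reductases of steroid and carbonyl metabolism, on chromosome 10. AKR1C3 ranked 10.9 in Panc1 against 94.9 and 94.6 in BxPC3. Of the 16 runs higher in Panc1, 3 were zinc finger genes on chromosome 19, for example ZNF569 (76.8 against 29.7 and 30.7) and ZNF570 (66.9 against 14.3 and 15.2). RIPK4, PRDM15, C2CD2 and ZBTB21 formed a run of 4 on chromosome 21. ZBTB21, a zinc finger repressor, ranked 82.8 against 8.95 and 7.81.

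Some runs held transcripts that host microRNAs, whose mature sequences are given because the targets of a microRNA are read from its seed. In each sequence, from RefSeq for GRCh38.p14, the seed (bases 2 to 8) is in capitals. The loci are chr1:209432166-209432187 on the plus strand for miR-205 and chr9:21512158-21512178 on the minus strand for miR-31.
hsa-miR-205-5p: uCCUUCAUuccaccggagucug
hsa-miR-31-5p: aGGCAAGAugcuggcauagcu
The seeds differ. ZEB1 is a known target of miR-205. The probe set annotated to MIR205 ranked 15.04 in Panc1 against 79.9 and 79.4 in BxPC3, and that of its host MIR205HG 20.2 against 67.1 and 67.8, both lower in Panc1. MIR31HG was higher in Panc1, as given above. These probe sets read the longer transcripts; mature microRNAs were not measured.

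The largest differences overall were not confined to the lists. Of the 15 genes with the largest excess in Panc1, ZEB1 and DKK3 were the only list members. The Panc1 ranks of these 15 lay between 80.4 and 99.1, and their BxPC3 ranks between 0.141 and 17.6. Those BxPC3 ranks are dim, so the choice and order of these 15 genes cannot be relied on. RBM24, an RNA-binding splicing regulator of muscle, ranked 94.7 in Panc1 against 4.84 and 3.95 in BxPC3, the phosphodiesterase PDE10A 91.95 against 1.499 and 2.47 and the connexin GJC1 95.4 against 7.92 and 6.96. CD81, a tetraspanin found on most cell types, ranked 99.1 against 17.6 and 15.9, and BNIP3, a mitophagy receptor induced in low oxygen, 93.6 against 15.04 and 14.3. CD81 was at least 95.4-fold higher in Panc1. ELOVL2, which lengthens polyunsaturated fatty acids, ranked 91.01 against 4.38 and 4.27. The other genes were TSPYL5, MEX3C, RASGEF1A, RNF182, ZNF677, KCNQ5 and DDX43.

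Among the 15 genes with the largest deficit in Panc1, the Panc1 ranks lay between 0.131 and 12.4 and the BxPC3 ranks between 90.7 and 98.8. Here the Panc1 ranks are the dim ones, and the choice and order of these genes rest on them. Besides PTGS2 the 15 held PLA2G4A, the phospholipase that frees arachidonic acid for cyclooxygenase, at 0.759 in Panc1 against 90.7 and 91.2 in BxPC3. Both enzymes of that path were thus high in BxPC3 and at the bottom of the scale in Panc1. ANXA3, a calcium-dependent membrane-binding protein, ranked 4.75 against 98.4 and 98.4. GALNT3, which starts mucin-type O-glycans, ranked 2.06 against 93.7 and 93.03, IFI16, a sensor of DNA, 4.97 against 97.8 and 97.7, and the transcription factor SOX7 11.05 against 98.8 and 98.8. C16orf54 ranked 0.131 against 91.8 and 92.2 and the chemokine CXCL11 4.85 against 94.6 and 95.1. The remaining genes, SCEL, COL4A6, SNAI2, ANXA10, MAL2, IFI44L and NID2, belong to the lists described above.

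The difference between the lines was also taken on the knockout arrays. These are other arrays of the same lines, with the same confounding of line and RMA run, and their p-values rest on the same residual spread. Of the 574 genes higher in the Panc1 control array, 433 (75.4%) had the same call in the knockout arrays, and of the 703 lower genes 595 (84.6%). The knockout arrays made 509 calls higher (3.96% of genes tested) and 747 lower (5.81%), of which 85.1% and 79.7% were shared with the control arrays. No gene was called in opposite directions, and 11 control calls had the other sign. The 15 genes of largest excess and the 15 of largest deficit in Panc1 all had the same call there. Across the 161 called genes named by rule, 145 had the same call and 161 the same sign. The called genes of the text that were not called there included CDH5, TWIST2, SPP1, MUC20, COL4A2, VCAN, LOXL1, ITGA1, BAMBI, CX3CL1, NLRC5, HOXB6 and CDKN1C. Among the genes of the runs, those not called there included GBP4, GBP5, the SPRR gene SPRR2C, ITGBL1, CADPS2, HOXB9, HSD11B1, IL36G and IL1RN. Others were PALLD, SYCP2L, CAP2, ULBP3, NECTIN1, OAF and TMTC4. ITGBL1 ranked 81.6 in the Panc1 knockout array against 77.4 and 76.9 in the BxPC3 knockout arrays. The differences that shrank most among those named were SPP1, from -55.9 to -7.08 points, and COL4A2, from 45.4 to 5.00.

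For the 161 called genes named here, the SE of the difference lay between 0.281 and 4.54 points and the limma adjusted p between 5.80e-05 and 0.00808. Another probe set above rank 50 existed for 72 of them. In 59 every such set also differed by over 25 points the same way, and in 13 at least 1 set fell short of that, including 2 genes, CEACAM5 and ERBB3, with a set of the other sign.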

How the data were processed

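RNA of 6 cell line samples was hybridised to 1-colour expression arrays after priming from the 3' end, per the labels' protocols. The deposited values are log2 probe set summaries made by the authors with RMA in the affy package, per the submitters' processing notes; versions are not given in the sources used here. RMA understates differences of dim probe sets. The number of arrays limits the precision.

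Of 54613 probe sets, 41091 had 1 gene symbol in the platform annotation, 1801 several and 11721 none. Ranks were taken among those with 1 symbol. A gene was represented by the probe set with the highest mean rank, both lines weighted equally; 12851 of the 12864 tested genes were matched to RefSeq by identifier. Array medians lay between 4.75 and 5.02. Differences were tested with limma 3.58.1 in R 4.3.3 on the ranks of all 6 arrays, with 1 mean for each group of cell line and genotype; Python 3.11.15 with pandas 2.3.3 did the rest. The script was tested on simulated data. The shared log2 scale is the mean sorted distribution of the 3 control arrays.

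The arrays compared and the 34 gene lists were chosen with earlier results of these data known, so lists are described by counts and medians only. They hold 854 genes, with 630 tested, 150 dim on the control arrays and 74 lacking a single-symbol probe set. Named by rule were the 15 largest differences each way, up to 6 called members of a list each way and a set of lineage and driver genes, 174 in all. Members given only by their difference, some further list members, the genes of chromosome runs and the promoter motif were chosen after values were seen. XIST and genes on chromosome Y were left out of the largest differences, the chromosome runs and the scatter figures, but not of the counts of genes tested and called. Probe sets ending in _x_at or _s_at can read several similar transcripts. Alternatives covered the size threshold, the scale, the probe set of a gene, the filter, each BxPC3 array left out, the knockout arrays and the limma design.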

Additional observations from a re-analysis of the deposited data

How the results depend on the processing

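The counts of called genes followed the size that was required. With 15 points in place of 25 there were 1256 genes higher and 1130 lower in Panc1, and with 35 points 332 higher. At 1 log2 unit or more the counts were 2209 higher and 1744 lower on the shared log2 scale, 1658 and 2230 on the log2 values as deposited, and 2445 and 1626 after centring. With genes required to exceed rank 75, so that fewer were tested, they were 290 and 415. Leaving out either BxPC3 control array gave 588 to 597 genes higher, 710 to 711 lower and 6171 to 6181 past the limma threshold. Under the other alternatives, which changed the probe set of a gene, the ranked set, the filter, the knockout arrays or the limma design, each count stayed within 1.5 times its main value. Of the 161 called genes named by rule, CEACAM5 alone changed sign, with a difference of 1.81 points when all probe sets were ranked and another of its probe sets became the brightest. None of the 161 lost its call when either BxPC3 array was left out, whereas 30 lost it at 35 points, 16 on the knockout arrays and 15, CEACAM5 among them, with all probe sets ranked. No paired analysis was possible because the Panc1 samples carry no replicate numbers and stand for 1 array per group. Medians of the lists for collagens, mucins, laminins, matrix crosslinking enzymes, integrins, receptor tyrosine kinase ligands, TGF-beta and BMP, Wnt, Hedgehog and YAP-TEAD genes, matrix glycoproteins and driver genes changed sign under at least 1 alternative. Dim genes have no order that RMA values can show, and the Panc1 difference has no replicate of its own.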
